A study of Mus musculus with 12 samples.

Results

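The 10 genes described here, Glul, Oat, Rhbg, Slc1a2, Lect2, Axin2, Nkd1, Rnf43, Lgr5 and Tbx3, are targets of Wnt/β-catenin signalling that mark the hepatocytes around the central vein of the liver lobule. They were chosen by name, and all 10 were found among the 55401 genes of the count table and among the 13205 genes with enough counts to be tested. Liver RNA of 12 female mice aged 15 weeks was sequenced, 6 labelled iTgMir483 and 6 labelled Control. In iTgMir483 mice 1 copy of Mir483, a microRNA gene that normally lies inside an intron of Igf2, was placed at the Rosa26 locus under a Tet-off promoter, with the transactivator driven by the ubiquitous Rosa26 promoter, so that doxycycline silences it. Doxycycline was given to the pregnant mothers in drinking water and withdrawn at birth. The controls were littermates from the same matings of heterozygous transgene males with females homozygous for CMV-Cre, the cross that the labels of both groups name, on a C57BL/6J background and a chow diet. The transgene is not restricted to hepatocytes, and nothing in these data separates an effect in the liver from one in another organ.

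Liver lobules are zoned from the portal vein to the central vein. Endothelial cells of the central vein release Wnt ligands and R-spondin 3, which stabilise β-catenin in the nearest hepatocytes. β-catenin then acts with TCF factors on 2 broad kinds of gene: components that feed back on the pathway itself, and enzymes and transporters of the pericentral zone, among them those that capture ammonium as glutamine. Genes of the portal side, such as those of the urea cycle, are kept low near the central vein by the same pathway.

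The mature products of Mir483 were examined because sequence matches to them among the 10 genes would mark candidate direct targets. RefSeq (GRCm38.p6) places both on the minus strand of chromosome 7, miR-483-3p at chr7:142654932-142654952 and miR-483-5p at chr7:142654968-142654989. The capitals mark the seed, bases 2 to 8 of each.
mmu-miR-483-3p: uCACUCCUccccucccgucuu
mmu-miR-483-5p: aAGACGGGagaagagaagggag
The complement of the miR-483-3p seed was found once in the 3′ UTR of Tbx3 and once in that of Slc1a2, and in none of the other 8 genes. The complement of the miR-483-5p seed was found in none of the 10. Among the 12099 tested genes with an annotated 3′ UTR, 12.6% held a match to miR-483-3p and 3.26% a match to miR-483-5p. The Tbx3 match lies at chr5:119683351-119683357 on the plus strand (GRCm38), 259 bases into a UTR of 1632 bases. The Slc1a2 match lies at chr2:102783051-102783057 on the plus strand, 1517 bases into a UTR of 9250 bases. Both are shown with their flanks, the seed match in capitals.
Tbx3 UTR: gagggggcgggAGGAGTGgtggcaaacag
Slc1a2 UTR: attcaacttgaAGGAGTGtcggaacccaa
Glul held no such match in its UTR of 1541 bases. Only exact matches to the seed were searched, in the longest annotated 3′ UTR of each gene. Other kinds of site and other parts of the genes were not covered. Whether a match acts on the level of its gene was not tested.

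Promoters of 7 of the 10 genes were listed by RefSeq, as 8 windows running from 250 bases before to 50 bases after a start site. They were searched on both strands for 2 forms of the TCF/LEF recognition sequence, CTTTGAA and CTTTGAT. A match was found in 2 of the 8 windows and in 8.65% of all 32851 promoter windows. In Slc1a2 the match began 207 bases before the start site, and in Lect2 32 bases before it, both CTTTGAT on the strand opposite to the gene. The windows below lie at chr2:102706220-102706249 (plus strand) and chr13:56548552-56548581 (minus strand), with the match in capitals.
Slc1a2 promoter: agaagagggacATCAAAGgccccaaatggt
Lect2 promoter: tgcttctccagATCAAAGgctttggccggc
The windows of Glul, Oat, Axin2, Nkd1 and Rnf43 held neither form. Sequence outside the windows was not searched, so sites elsewhere in or near these genes are not covered. The windows of Slc1a2 (chr2:102706188-102706487) and Nkd1 (chr8:88527383-88527682) lie inside the gene positions given below, so other start sites of these genes were not covered.

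Library totals were 12244123 to 30431286 counts in the Control group and 12415140 to 15846175 in the iTgMir483 group. Mir483 itself had 0 counts in every Control library and 37.1 ± 13.1 (SD, n = 6) CPM, the count relative to the total of the library, in the iTgMir483 libraries, with a lowest value of 23.3. The libraries were made from polyadenylated RNA, so these counts do not give the level of the mature microRNA in either group. CPM values were scaled by TMM, an adjustment for the overall composition of each library, and a gene was called higher or lower when edgeR's quasi-likelihood test gave a Benjamini-Hochberg adjusted p under 0.05 over all genes tested and the fold exceeded 1.5.

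In the transgenic livers, Glul was lower and none of the other 9 genes was called in either direction. Glul, which encodes glutamine synthetase and is expressed in the hepatocytes closest to the central vein, fell to 65.2% of its Control mean. Oat, the gene with the highest level, stood at 99.0% of its Control mean, and the feedback genes Axin2 and Rnf43 and the R-spondin receptor gene Lgr5 had means above those of the Control group without passing the test. Thus 1 of 10 genes was called, where 11.1% of all genes tested were called (8.41% higher and 2.73% lower). All 10 reached the count floor of the test in every library. The median log2 fold change was 0.08 over the 10 genes, with 0.01 over all genes tested, and it turned to -0.0065 without iTgMir483 replicate 1 and -0.003 without both replicate 1 livers.

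**Figure D1:**
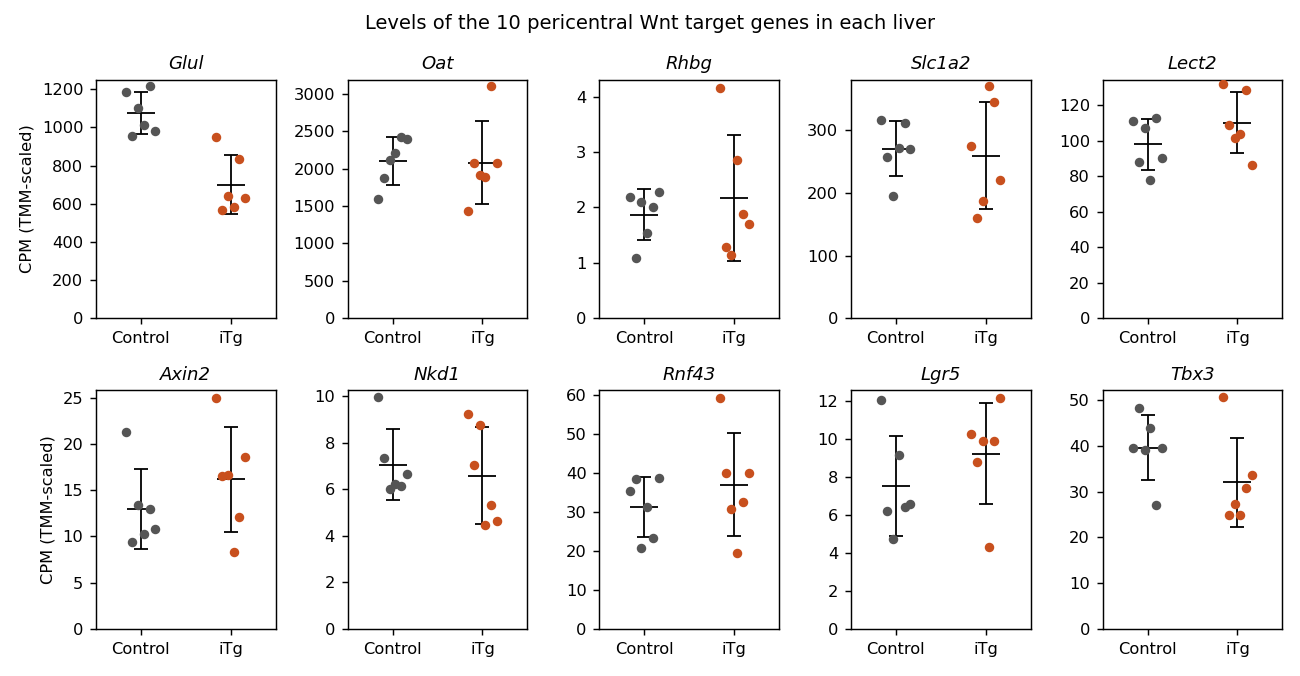
CPM of each of the 10 genes (vertical axis, from 0) in the 6 Control and 6 iTgMir483 (iTg) livers; points are livers in replicate order, horizontal lines are means and bars are SD. Glul is the gene whose groups do not overlap, with all iTgMir483 livers at or below 952 CPM and all Control livers at or above 956.5 CPM.

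In the Control livers, Glul (ENSMUSG00000026473; chr1:153899944-153909723, plus strand) measured 1186, 956.5, 1102, 1011, 1216 and 980.4 CPM in replicates 1 to 6. In the iTgMir483 livers it measured 952.0, 564.6, 638.5, 582.4, 833.1 and 632.2 CPM. All 6 transgenic livers lay below all 6 Control livers, a separation seen in 7.92% of all genes tested, although transgenic replicate 1 missed Control replicate 2 by a few CPM. The means were 1075 ± 109.6 and 700.5 ± 156.1 CPM (SD, n = 6 each). Between the groups, the log2 fold change was -0.62 (SE 0.15, 95% interval -0.93 to -0.31) with an edgeR adjusted p of 0.00974. An exact two-sided permutation test over the 924 assignments of livers to groups gave p = 0.0022, the smallest that 6 against 6 can give. The estimate sits close to the fold threshold: without Control replicate 5, iTgMir483 replicate 2 or iTgMir483 replicate 4 it was -0.58, -0.56 and -0.57, with edgeR adjusted p values of 0.0243, 0.0187 and 0.0182, so that the fold and not the test was lost and 0 genes were called.

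Marker genes of hepatocytes also stood lower in part of the transgenic livers. The 6 tested markers of 7 listed (Alb, Apoa1, Apob, Ttr, Hnf4a and Cebpa) summed to 115079 to 160440 CPM in the Control livers and 56272 to 129724 CPM in the iTgMir483 livers. Most of each sum came from Alb, at 111914 ± 16403 and 76071 ± 28716 CPM (SD, n = 6 each), while Apoa1 had a log2 fold change of 0.19. None of the 6 was called, against 11.1% of all genes tested. A fold change below 0 was seen for 5, and the median log2 fold change of the 6 was -0.27. Kupffer cell and macrophage markers summed to 275.9 to 402.5 CPM in the Control livers and 423.6 to 1130 CPM in the iTgMir483 livers. Of these, 6 of 7 were called higher, against 8.41% of all genes tested. Bile duct markers summed to 39.1 to 63.6 and 75.4 to 116.4 CPM, and of the 6 tested Spp1 was called higher (log2 fold change 1.31, edgeR adjusted p = 0.000517). Krt7 and Epcam reached the count floor in all 6 iTgMir483 libraries but in 3 and 5 Control libraries, so no call is counted for these genes. The neutrophil markers S100a8 and S100a9 averaged 0.42 and 0.887 CPM in the Control livers and 2.10 and 5.59 CPM in the iTgMir483 livers. They entered the test through the iTgMir483 libraries, since 0 and 3 Control libraries reached the count floor (0.644 CPM), so no call is counted for them. Ly6g had at most 3 counts in every library. Endothelial, stellate cell and blood markers gave 0 calls among 8, 6 and 4 genes, against 11.1% of all genes tested. In bulk tissue, fewer cells of a type and less RNA per cell cannot be told apart, and the part of these markers in the Glul result was not tested.

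Oat, Rhbg and Slc1a2 share the pericentral handling of ammonium and glutamate with Glul but none of the 3 was called. Oat, the mitochondrial ornithine aminotransferase that yields glutamate semialdehyde from ornithine (chr7:132557478-132576398, minus strand), measured 1592, 1876, 2117, 2207, 2426 and 2396 CPM in the Control livers. It measured 1427, 2075, 1917, 1883, 3104 and 2077 CPM in the iTgMir483 livers. The groups overlapped, with the lowest value of each group in its replicate 1. The log2 fold change was -0.01 (95% interval -0.39 to 0.36, edgeR adjusted p = 0.963), and its sign changed with which libraries entered the fit. Oat carried no difference beyond the spread between livers, and its interval leaves out a 1.5-fold change in either direction.

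Rhbg, an ammonium transporter of the hepatocyte membrane (chr3:88242874-88254709, minus strand), was weakly expressed, with 18 to 57 counts per library. It measured 2.20, 1.09, 2.09, 1.54, 2.01 and 2.29 CPM in the Control livers and 4.15, 1.29, 1.14, 2.86, 1.88 and 1.70 CPM in the iTgMir483 livers. Its transgenic values ran from near the Control minimum to far above the Control maximum. At Rhbg the log2 fold change was 0.22 (95% interval -0.44 to 0.88, edgeR adjusted p = 0.656), an interval that includes a 1.5-fold increase, and the fold change was -0.07 without iTgMir483 replicate 1, which held the highest value.

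Slc1a2, the glutamate transporter GLT-1 (chr2:102658659-102790784, plus strand), measured 315.8, 256.8, 195.5, 270.9, 311.9 and 269.9 CPM in the Control livers. In the iTgMir483 livers it measured 275.2, 159.7, 187.2, 369.9, 344.2 and 219.9 CPM, so that 2 livers lay above and 2 below every Control liver. The log2 fold change was -0.06 (95% interval -0.48 to 0.36, edgeR adjusted p = 0.865). The difference at this gene, which holds a miR-483-3p match, was smaller than the spread of the livers, and it turned to 0.05 without iTgMir483 replicate 2 and to 0.02 without replicate 3.

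Lect2, a secreted leukocyte chemotactic factor made by hepatocytes (chr13:56542464-56548502, minus strand), ranged from 78.1 to 112.6 CPM around a median of 98.6 in the Control livers and from 86.5 to 131.6 CPM around a median of 106.2 in the iTgMir483 livers. Its log2 fold change of 0.17 had the narrowest interval of the 10 genes, -0.09 to 0.43 (edgeR adjusted p = 0.357), which excludes a 1.5-fold change in either direction.

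**Figure D2:**
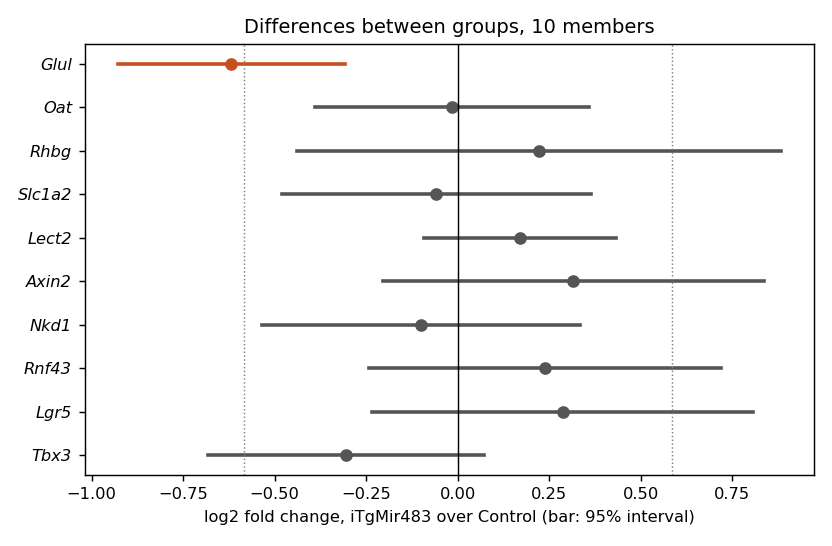
Log2 fold change of iTgMir483 over Control for the 10 genes (points) with 95% intervals (bars); dotted lines mark a 1.5-fold change and the coloured gene, Glul at -0.62, was called. The other 9 intervals cross 0.

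The feedback genes of the pathway are the usual readout of β-catenin activity. Axin2, a scaffold of the β-catenin destruction complex whose transcription rises with Wnt signalling (chr11:108920349-108950783, plus strand), measured 21.3, 9.38, 13.4, 10.3, 12.9 and 10.8 CPM in the Control livers. In the iTgMir483 livers it measured 25.0, 16.5, 16.6, 8.35, 12.1 and 18.6 CPM. Control replicate 1 stood apart from the other Control livers, and the transgenic livers spanned the whole Control range and passed it at both ends. For Axin2 the log2 fold change was 0.32 (SE 0.24, 95% interval -0.20 to 0.84) with an edgeR adjusted p of 0.389 and an exact permutation p of 0.318. Leaving out single livers moved it from 0.15 to 0.51 with no call.

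Nkd1, a cytoplasmic antagonist that binds Dishevelled (chr8:88521354-88594884, plus strand), measured 9.98, 7.36, 6.00, 6.22, 6.16 and 6.68 CPM in the Control livers and 9.25, 7.07, 8.76, 4.47, 5.33 and 4.64 CPM in the iTgMir483 livers. Of the 6 transgenic livers, 3 lay below every Control liver and the others within the Control range. The log2 fold change was -0.10 (95% interval -0.53 to 0.34, edgeR adjusted p = 0.772), and without Control replicate 1 it was 0.02.

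Rnf43, a ubiquitin ligase that removes Frizzled receptors from the cell surface (chr11:87662722-87735539, plus strand), measured 35.5, 38.5, 20.8, 31.3, 23.2 and 38.8 CPM in the Control livers. It measured 59.3, 40.1, 30.7, 19.6, 32.5 and 39.9 CPM in the iTgMir483 livers, with replicate 1 far above and replicate 4 below the Control range. Rnf43 had a log2 fold change of 0.24 (95% interval -0.24 to 0.72, edgeR adjusted p = 0.492). Taken by role, 0 of the 3 feedback genes were called, and the intervals of Axin2 and Rnf43 include a 1.5-fold increase but not a 1.5-fold decrease.

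Lgr5, a receptor for R-spondins that marks pericentral hepatocytes and stem cells of other epithelia (chr10:115450311-115587780, minus strand), measured 12.1, 6.21, 4.74, 9.13, 6.43 and 6.58 CPM in the Control livers. It measured 10.3, 8.78, 9.90, 4.32, 9.90 and 12.2 CPM in the iTgMir483 livers. The highest and lowest of the 12 values, 12.2 and 4.32 CPM, were both transgenic. Lgr5 had a log2 fold change of 0.29 (95% interval -0.23 to 0.81, edgeR adjusted p = 0.440).

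Tbx3, a T-box transcription factor downstream of β-catenin in pericentral hepatocytes (chr5:119670669-119684724, plus strand), measured 39.4, 48.3, 39.0, 43.9, 27.1 and 39.5 CPM in the Control livers. The iTgMir483 livers measured 50.7, 25.0, 27.2, 24.8, 30.8 and 33.7 CPM. Replicate 1 held the highest value of all 12 livers, while the other 5 transgenic livers lay under all but the lowest Control liver. The log2 fold change was -0.31 (95% interval -0.68 to 0.07, edgeR adjusted p = 0.244) and ran from -0.48 to -0.24 when single livers were left out. Without iTgMir483 replicate 1 it was -0.48 with an edgeR adjusted p of 0.0239, past the test but under the fold threshold. Tbx3, the other gene with a miR-483-3p match, thus had the second largest decrease of the 10 without passing the test over all livers. Its exons overlap those of the antisense gene Tbx3os1 (61 to 377 counts per library), and the strand setting of the authors' counting was not stated, so reads of the pair may be mixed. For Glul the overlapping antisense gene Teddm2 had 16 to 119 counts, against 7911 to 29561 for Glul.

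Compared per kilobase of exon, the 10 genes spanned a wide range of levels, and their order was similar in both groups. Mean levels in the Control livers were 890.8 CPM per kilobase for Oat, 323.6 for Glul, 106.5 for Lect2 and 20.6 for Slc1a2, and the ranges of neighbours in this order did not overlap. Below them came Tbx3 at 5.97, Rnf43 at 4.78, Axin2 at 2.36 and Nkd1 at 1.55 CPM per kilobase, where each range overlapped the next. Rhbg at 0.965 and Lgr5 at 0.733 CPM per kilobase were lowest and overlapped each other. In the iTgMir483 livers Glul averaged 210.8 and Lect2 119.8 CPM per kilobase, so their order was kept with a smaller gap. Rnf43 and Tbx3 exchanged places within overlapping ranges. With the length of the longest transcript in place of all exons, Lgr5 ranked above Rhbg.

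**Figure D3:**
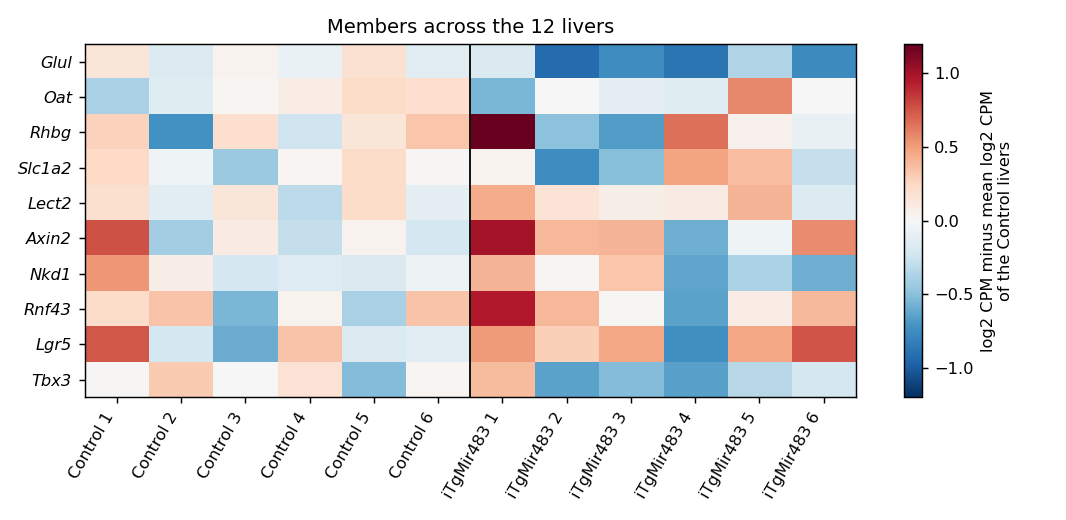
Log2 CPM of each gene (rows) in each liver (columns) minus the mean log2 CPM of the Control livers; red is above and blue below that mean, and the black line divides the groups. Glul is below the Control mean in all 6 iTgMir483 livers, and the columns of iTgMir483 replicates 1 and 4 stand at opposite ends for Axin2, Nkd1, Rnf43, Lgr5 and Tbx3, except that replicate 6 exceeds replicate 1 for Lgr5.

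Single livers stood at the same end of their group for several genes. Among the transgenic livers, replicate 1 had the highest value of 7 genes (Axin2, Nkd1, Rnf43, Tbx3, Glul, Rhbg and Lect2) and the lowest of Oat. Replicate 4 had the lowest value of 5 (Axin2, Nkd1, Rnf43, Lgr5 and Tbx3) and the highest of Slc1a2. Among the Control livers, replicate 1 was highest for Axin2, Nkd1, Lgr5 and Slc1a2 and lowest for Oat. Hepatocyte markers summed to 63594 CPM in transgenic replicate 1 and 56272 CPM in replicate 4, the 2 lowest of all livers, and macrophage markers to 516.6 and 1130 CPM. With both replicate 1 livers left out, Glul had a log2 fold change of -0.70 (edgeR adjusted p = 0.00348) and remained the 1 gene called.

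Within groups, Glul was set against each of the other members over 6 livers, a number that leaves wide uncertainty. Of 18 correlations of Glul with the other 9 genes over 6 livers of 1 group, none had an adjusted exact permutation p under 0.05. With Tbx3, for example, Pearson's r was -0.78 in the Control livers (Spearman's rho -0.89) and 0.85 in the iTgMir483 livers (rho 0.77), with exact permutation p values of 0.0306 in each group and 0.0333 and 0.103 for rho, all adjusted to 0.217 or more. Without the 2 livers farthest from the Glul median, r was -0.66 and 0.73. With Axin2, r was 0.79 in the Control livers and 0.45 in the iTgMir483 livers. With Lect2, r was 0.86 in the Control livers (rho 0.83; exact permutation p = 0.0625 and 0.0583, adjusted to 0.281 and 0.463) and 0.76 in the iTgMir483 livers (rho 0.49; exact permutation p = 0.0958 and 0.356, adjusted to 0.345 and 0.64). Without the 2 livers farthest from the Glul median, r with Lect2 was 0.67 in the Control livers and -0.70 in the iTgMir483 livers, so the latter rests on those livers. Over all 12 livers, which include the difference between the groups, the tested genes most like Glul in log2 CPM were Xkr9 (r = 0.94), Mup2 (0.93) and Usp47 (0.93), and those most like Axin2 were Bri3bp (0.91), Fadd (0.91) and Map3k20 (0.89). These likenesses describe shared libraries and carry no test.

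Upstream of the 10 genes, the ligands were sparsely expressed and none was called, against 11.1% of all genes tested. Of 19 Wnt genes, 5 had enough counts to be tested, with a median log2 fold change of -0.42 that was -0.0942 without Control replicate 3, when 6 genes entered, and -0.17 with at least 10 counts in every sample. Wnt5b and Wnt4 were on the other side of 0, at 0.21 and 0.05 on the log2 scale (edgeR adjusted p = 0.582 and 0.909), Wnt5b being the ligand with the most CPM (11.3 ± 3.1 and 13.0 ± 5.4, SD, n = 6 each). Wnt2, a ligand of sinusoidal and central vein endothelium, measured 5.46, 6.62, 5.09, 5.98, 5.02 and 5.85 CPM in the Control livers and 5.24, 2.86, 3.36, 4.76, 5.76 and 3.48 CPM in the iTgMir483 livers. Of the 6 transgenic values, 4 lay below every Control value, and the log2 fold change was -0.42 (95% interval -0.79 to -0.04, edgeR adjusted p = 0.110). Wnt9b, made by central vein endothelium, averaged 1.91 ± 0.33 and 1.40 ± 0.51 CPM (SD, n = 6 each), a log2 fold change of -0.44 (edgeR adjusted p = 0.196). Wnt9b in transgenic replicate 1 was 2.40 CPM against 0.999 to 1.39 CPM in the other 5, and without that liver it was called lower at -0.66 (edgeR adjusted p = 0.0334). Rspo3, the R-spondin of central vein endothelium, measured 5.96 ± 0.75 and 5.93 ± 0.87 CPM (log2 fold change -0.01, 95% interval -0.30 to 0.28, edgeR adjusted p = 0.969). Of 4 central vein endothelium markers, Kit and Cdh13 were called lower, against 2.73% of all genes tested. Kit had a log2 fold change of -0.93 (edgeR adjusted p = 0.0134). Cdh13 had -0.66 (edgeR adjusted p = 0.0202), under the fold threshold at -0.56 without iTgMir483 replicate 3. Thbd and Lhx6 had fold changes above 0 and were not called. The summed level of the 4 was 19.5 to 25.3 CPM in the Control livers and 11.1 to 35.2 CPM in the iTgMir483 livers, and the part of these cells in the Wnt2 and Wnt9b values was not tested.

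**Figure D4:**
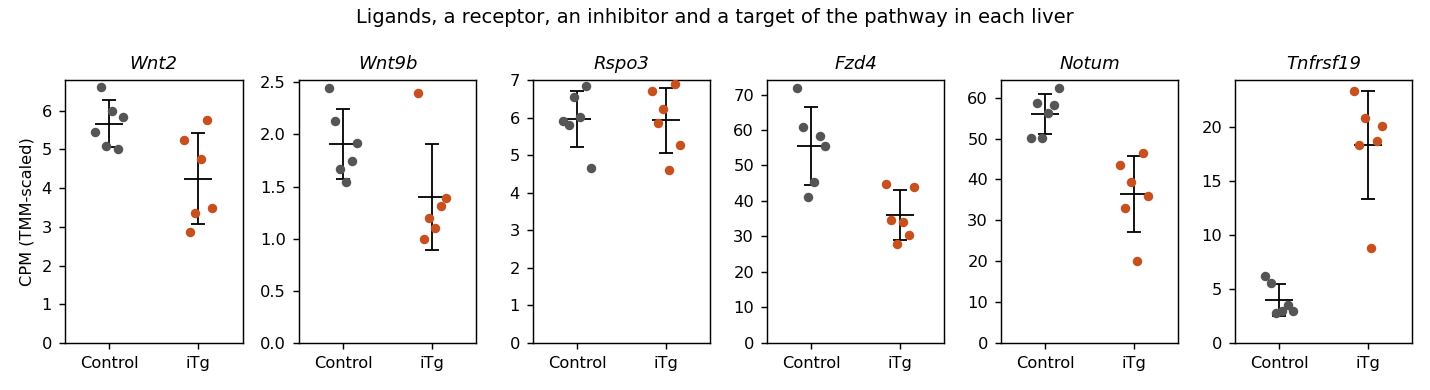
CPM (vertical axes, from 0) of 6 further genes of the pathway in the 6 Control and 6 iTgMir483 (iTg) livers, with means (lines) and SD (bars). Notum and Tnfrsf19 do not overlap between the groups, in opposite directions; Fzd4 was called lower with overlapping groups, and Wnt2, Wnt9b and Rspo3 were not called.

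Of 11 tested receptors and co-receptors, 1 was called, against 11.1% of all genes tested. Fzd4, a Frizzled receptor, measured 41.2 to 72.0 CPM in the Control livers and 27.9 to 44.9 CPM in the iTgMir483 livers. Its log2 fold change was -0.63 (SE 0.15, edgeR adjusted p = 0.0109), and it dropped under the fold threshold without Control replicate 1 (-0.54), iTgMir483 replicate 3 (-0.56) or replicate 5 (-0.58). Lgr4, the R-spondin receptor closest to Lgr5, was at 39.1 ± 4.2 and 33.0 ± 4.9 CPM (SD, n = 6 each; log2 fold change -0.24, edgeR adjusted p = 0.134).

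Of 8 tested inhibitors, 3 were called lower and Frzb higher, against 2.73% and 8.41% of all genes tested. Sfrp5 is given below by its values alone. Notum, a secreted enzyme that strips Wnt proteins of their lipid and is itself a pericentral β-catenin target, measured 50.1, 58.6, 50.1, 56.3, 58.3 and 62.3 CPM in the Control livers. It measured 43.6, 33.0, 39.4, 20.1, 46.4 and 36.0 CPM in the iTgMir483 livers, all below every Control liver. The log2 fold change was -0.62 (SE 0.16, edgeR adjusted p = 0.0145), close to that of Glul, and -0.50 without iTgMir483 replicate 4, under the fold threshold. Dact1, a Dishevelled antagonist, and Dkk3 fell by 1.10 and 0.79 on the log2 scale (edgeR adjusted p = 0.00163 and 0.0141). Sfrp5, a secreted Wnt-binding protein, had 0 to 5 counts in the Control libraries (at most 0.279 CPM) and 16 to 42 counts in the iTgMir483 libraries (1.17 to 3.17 CPM). It entered the test through the iTgMir483 libraries, with 0 Control libraries at the count floor, so its fold and p are not given. Frzb rose by 0.86 (edgeR adjusted p = 0.0389), a call lost in 13 of 19 alternative fits. Znrf3, the ubiquitin ligase paired with Rnf43, measured 15.3 ± 1.6 and 15.2 ± 1.8 CPM (log2 fold change -0.01, edgeR adjusted p = 0.973).

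Inside the cell, 0 of 11 tested genes of the β-catenin destruction complex were called, against 11.1% of all genes tested. Their median log2 fold change was -0.02. Of 8 tested genes for β-catenin and its nuclear partners, 7 were not called. Pygo1, a co-activator that binds the β-catenin complex, measured 0.439 to 1.04 CPM in the Control livers (at most 19 counts) and 0.874 to 3.48 CPM in the iTgMir483 livers. It too entered the test through the iTgMir483 libraries, with 1 Control library at the count floor, and could not be tested with at least 10 counts in every sample, so no fold is given. Ctnnb1, which encodes β-catenin, had a log2 fold change of -0.29 (95% interval -0.51 to -0.07, edgeR adjusted p = 0.0625), and Tcf7l2, a TCF factor expressed in hepatocytes, -0.11 (edgeR adjusted p = 0.460). RNA levels do not show how much β-catenin protein was stable.

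Of 8 tested genes in a list of other Wnt targets, 3 were called higher and none lower, with a median log2 fold change of 0.13. Over all genes tested, 8.41% were called higher and 2.73% lower. Notum, a target placed with the inhibitors, is not among these 8 and was called lower, as given above. Tnfrsf19, a receptor of the TNF family also called Troy, measured 2.79 to 6.21 CPM in the Control livers and 23.3, 18.3, 20.8, 8.79, 18.7 and 20.1 CPM in the iTgMir483 livers. All transgenic livers were above all Control livers (log2 fold change 2.20, SE 0.25, edgeR adjusted p = 0.000166). Ccnd1, the cell cycle gene for cyclin D1, rose by 1.48 (edgeR adjusted p = 0.0223) with overlapping groups. It measured 18.6 to 57.0 CPM in the Control livers and 24.3 to 196.6 CPM in the iTgMir483 livers. Transgenic replicates 1 (24.3 CPM) and 4 (49.3 CPM) lay within the Control range. Cd44, a hyaluronan receptor of activated and immune cells as well, rose by 1.02 (edgeR adjusted p = 0.0293), also with overlapping groups. The calls of Ccnd1 and Cd44 were lost in 2 and 6 of 19 alternative fits. The rise in Cd44 stands beside the higher macrophage markers given above, and their part in it was not tested. Sp5, a transcription factor induced by Wnt signals, had at most 21 counts in a library and a log2 fold change of 0.11 (edgeR adjusted p = 0.865).

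**Figure D5:**
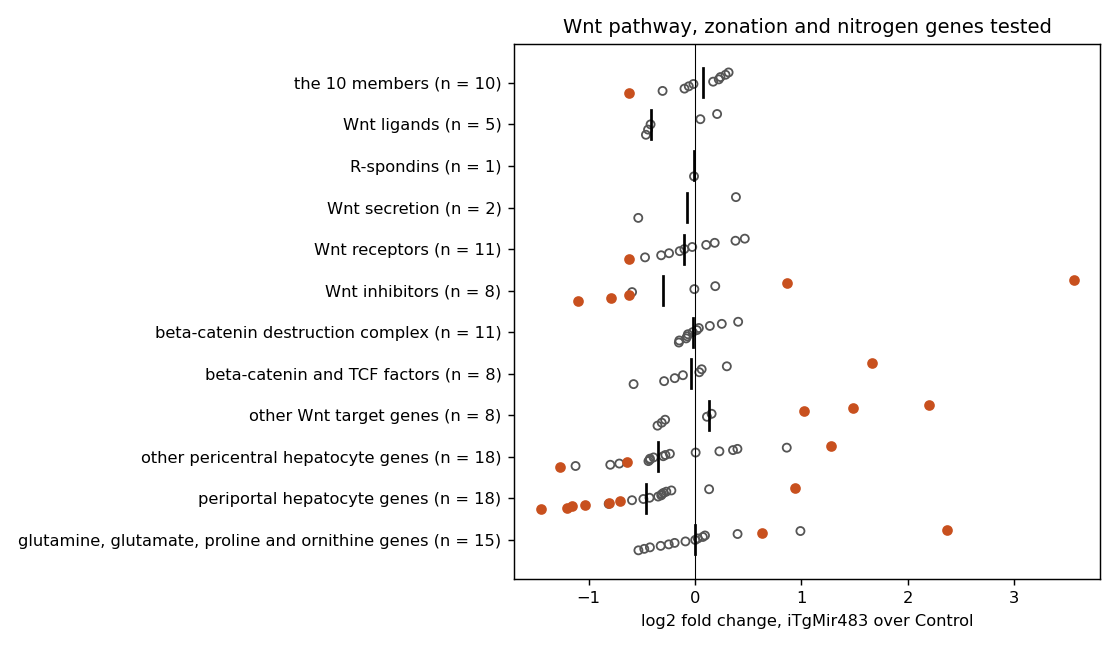
Log2 fold change of iTgMir483 over Control for every tested gene of each list (circles; filled where called), with the median of each list as a black bar; the filled points of Sfrp5 and Pygo1 entered the test through the iTgMir483 libraries. Glul and Notum, at -0.62 each, are filled below 0, and so are 6 of 18 periportal genes. Most Wnt pathway genes are open circles, with list medians from -0.42 (ligands) to 0.13 (other Wnt targets). Of the 8 inhibitors, 3 are open and 3 are filled below 0. The other filled inhibitors are Frzb, whose call was lost in most alternative fits, and Sfrp5, for which no call is counted.

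Genes of both lobule zones were examined beside the 10. Of 18 other pericentral hepatocyte genes, 1 was called higher and 2 lower, against 8.41% and 2.73% of all genes tested. The median log2 fold change was -0.34, with 12 of 18 below 0. With a replicate block 6 were called, and without Control replicate 2, 4, 5 or 6 in turn 1 was called. Nr1i3, the xenobiotic receptor CAR, measured 810.7 to 1216 CPM in the Control livers and 285.2 to 576.8 CPM in the iTgMir483 livers (log2 fold change -1.27, SE 0.17, edgeR adjusted p = 0.000479). Slc16a10, an aromatic amino acid transporter, fell by 0.64 (edgeR adjusted p = 0.0443, a call lost in 9 of 19 alternative fits), and Slc13a3, a dicarboxylate transporter, rose by 1.28 (edgeR adjusted p = 0.0235, lost in 5). Cyp2e1, a cytochrome P450 of the pericentral zone, averaged 10805 ± 1094 and 8042 ± 810 CPM (SD, n = 6 each), a log2 fold change of -0.43 that passed the test (edgeR adjusted p = 0.0404) but not the fold threshold. Cyp1a2 (log2 fold change -0.71, edgeR adjusted p = 0.305) was called lower only in the fits with a replicate block (-0.80), without iTgMir483 replicate 1 (-1.25) and without both replicate 1 livers (-0.78), among those run, replicate 1 being the highest liver of each group. Cyp7a1, the rate-limiting enzyme of bile acid synthesis, was not called (0.40, edgeR adjusted p = 0.352).

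Among periportal hepatocyte genes, 6 of 18 were called lower, against 2 of 18 pericentral ones and 2.73% of all genes tested. In the periportal list 1 was called higher, against 8.41% of all genes tested, and the median log2 fold change was -0.46. On adjusted p alone, 6 periportal and 4 pericentral genes were lower. The difference between the lists was not tested. With a replicate block, 9 periportal and 6 pericentral genes were called in either direction. Hal, the histidine ammonia lyase, fell by 1.45 (edgeR adjusted p = 0.000348), the urea cycle enzymes Cps1 and Ass1 by 1.21 and 1.04 (edgeR adjusted p = 0.00476 and 0.00274), and Hsd17b6 by 1.16 (edgeR adjusted p = 0.0127). Cps1, which like Glul fixes ammonium but at the portal side, measured 5497 to 9525 CPM in the Control livers and 1823 to 4339 CPM in the iTgMir483 livers. Cyp2f2, a periportal cytochrome P450, was called lower (-0.81, edgeR adjusted p = 0.0283), and the call was lost in 5 of 19 alternative fits. Aldh1b1 was called higher (0.94, edgeR adjusted p = 0.00317). Gls2, the liver glutaminase that supplies ammonium from glutamine, had a log2 fold change of -0.32 (edgeR adjusted p = 0.112). The hepatocyte marker sums given beside Glul, set mostly by Alb, stand beside these lists too, and their part in them was not tested.

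Of 15 other tested genes that handle glutamine, glutamate, proline and ornithine, none was called lower, against 2.73% of all genes tested. The median log2 fold change was 0.00. Slc1a4, a neutral amino acid transporter of the same family as Slc1a2, rose from 1.54 to 4.53 CPM in the Control livers to 9.35 to 21.5 CPM in the iTgMir483 livers (log2 fold change 2.36, edgeR adjusted p = 0.000119). Glud1, the glutamate dehydrogenase, averaged 1038 ± 89.6 and 773.4 ± 135.9 CPM (SD, n = 6 each), a log2 fold change of -0.42 that passed the test (edgeR adjusted p = 0.0326) but not the fold threshold.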

How the data were processed

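Polyadenylated liver RNA of 6 Control and 6 iTgMir483 mice was prepared as stranded libraries and sequenced as paired-end reads. The deposited values are raw counts per Ensembl gene, made by the authors by aligning to GRCm38 with STAR; the strand column they took was not given in the sources used here. Groups and replicates came from the sample titles. Symbols and positions came from GENCODE M21 (55141 of 55401 identifiers matched), promoters and mature microRNAs from RefSeq.

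Counts were filtered with filterByExpr, scaled by TMM and fitted with edgeR 4.0.16 (quasi-likelihood F-test, R 4.3.3) on all genes, 13205 tested. Genes were called at an adjusted p under 0.05 and a fold over 1.5; SE is the absolute log2 fold change over the square root of F, with 95% intervals from its t distribution. Levels over single values were compared by exact permutation. The scripts were tested on simulated data. Alternatives were RLE scaling, other count filters, DESeq2 1.42.0, limma-voom (limma 3.58.1), a replicate block, a test against a 1.5-fold change, adjusted p alone, and leaving out libraries. The 10 genes, the gene lists and the tests were chosen with earlier results of these data known, so list counts are descriptions. Genes were named by a rule: the 10 members, up to 4 called genes with the largest fold in each direction of each list, and 16 genes named whatever their result; the marker genes were named beside the results they touch. Replicates are separate mice. No 2 libraries of a group agreed within sampling noise. Counting error alone limits weakly expressed genes such as Rhbg. The result of 1 listed gene is not reported here.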

Additional observations from a re-analysis of the deposited data

Results flagged for a closer look

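Dixon's test was applied to the 10 genes in each group of 6 livers, 20 sets of values, where chance alone gives about 1 flag and 3 were seen. Axin2 in Control replicate 1 stood above the other 5 Control livers, at 21.3 CPM against 9.38 to 13.4 CPM, with a gap of 0.663 of the range. Nkd1 was highest in the same liver, at 9.98 CPM against 6.00 to 7.36 CPM, with a gap of 0.657 of the range. Tbx3 in iTgMir483 replicate 1 was 50.7 CPM against 24.8 to 33.7 CPM in the other 5 livers, with a gap of 0.658 of the range. Without Control replicate 1 the log2 fold change of Axin2 was 0.51 and that of Nkd1 0.02, neither of them called. Without iTgMir483 replicate 1 that of Tbx3 was -0.48, which passed the test (edgeR adjusted p = 0.0239) but not the fold threshold.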

How the results depend on the processing

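Glul kept its direction under every alternative run, with log2 fold changes from -0.73 to -0.56 when single livers were left out, and it was no longer called without Control replicate 5 (-0.58), iTgMir483 replicate 2 (-0.56) or iTgMir483 replicate 4 (-0.57), nor in a test against a 1.5-fold change; the count of the 10 genes called was 0 to 1 without single livers and 0 in that test. With the replicate number as a block, Glul was at -0.64 (edgeR adjusted p = 0.00462) and no other of the 10 genes was called. The numbers were not treated as pairing the livers, since the correlations of deviations ran from 0.034 to 0.44 and were under 0.1 for 4 of the 6 numbers. The test against a 1.5-fold change called 226 genes (167 higher and 59 lower), and adjusted p alone called 2457 (968 lower). Signs turned for Nkd1 without Control replicate 1 (0.0232), for Oat without Control replicate 5 (0.0276) or 6 (0.0203), iTgMir483 replicate 1 (0.0721), 3 (0.0084) or 4 (0.0111) or both replicate 1 livers (0.0037), for Rhbg without iTgMir483 replicate 1 (-0.0667) or both replicate 1 livers (-0.0098), and for Slc1a2 without iTgMir483 replicate 2 (0.0479) or 3 (0.0202); without single livers these ranged from -0.219 to 0.0232 for Nkd1, -0.164 to 0.0721 for Oat, -0.0667 to 0.359 for Rhbg and -0.188 to 0.0479 for Slc1a2, with no call. The median of the Wnt ligands was -0.20 with no count filter, -0.17 with at least 10 counts in every sample and -0.414 to -0.0942 without single livers, where 4 to 14 genes entered in place of 5. That of the inhibitors was -0.62 with no filter, -0.0593 in limma-voom, -0.16 with the block, -0.0631 without both replicate 1 livers and -0.37 to 0.0582 without single livers. That of β-catenin and TCF factors was -0.13 with no filter and -0.10 with at least 10 counts. The other pericentral genes had a median of -0.41 with the block, the periportal genes -0.70 to -0.39 and the glutamine list -0.177 to 0.0536 without single livers. Apart from the changed numbers of genes, the cause of these shifts was not tested. Low counts limit Rhbg, Sp5, Sfrp5, Pygo1 and the untested ligands.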
